A study of Homo sapiens with 6 samples.

Results

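EHF and 9 further transcription factors of the ETS family (ELF3, ELF1, ELF2, SPDEF, ETS1, FLI1, ETV6, ETV1 and ELK3) were followed in a human colon carcinoma cell line with and without an intact *ZKSCAN3* gene. The 10 genes were taken by symbol from a table of 46427 genes, and the set was chosen because EHF RNA was nearly lost in the knockout cells. The contrast of the genotypes therefore chose the set, and the differences of the 10 genes are given as a description without a test. HCT116, an established epithelial line, was compared as parental cells (*ZK3*-WT) and as *ZK3*-KO cells, in which CRISPR/Cas9 removed the start codon in the first exon of both *ZKSCAN3* alleles. The *ZK3*-KO cells descend from a single selected cell, so genotype cannot be told apart from what is particular to that clone. Both were grown in serum-containing medium without a further agent, and polyadenylated RNA of 3 biological replicates per genotype was sequenced from stranded libraries.

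ETS factors share a winged helix-turn-helix DNA-binding domain that reads the core letters GGAA, and most of them are told apart by the flanking bases, their partners and the cells that make them. The ESE subfamily (EHF, ELF3 and ELF5) is largely restricted to epithelia, where it is known for roles in epithelial differentiation, and SPDEF is known for goblet and other secretory cells. ETS1, the PEA3 factors such as ETV1, and the ternary complex factors such as ELK3 are known as recipients of signals from the RAS and ERK pathway, whereas ETV6 is a repressor.

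Between 60827060 and 69739215 reads were counted per library. *ZK3*-KO replicate 3 stood apart: its log2 CPM (counts scaled to library size) correlated with the other *ZK3*-KO libraries at r of 0.959 and 0.944 across genes, where replicates 1 and 2 had 0.982 and the *ZK3*-WT libraries 0.981 to 0.986. Results are therefore also given without it. The 15 colon epithelium markers summed to 2897 to 6039 CPM, the highest in that library, with the keratins KRT8 and KRT18 the most abundant. The differentiated enterocyte markers VIL1, CDX1, CDH17 and LGALS4 were at or near 0. Summed levels of 12 fibroblast and muscle markers (49.1 to 119 CPM), 7 endothelial markers (0.851 to 2.64 CPM) and 12 blood and immune markers (3.44 to 10.7 CPM) were low beside the epithelial sum in both genotypes. PTPRC, which marks blood cells, had no reads. COL1A1, a collagen, was clearly present at 32.2 to 98.75 CPM and made up most of the fibroblast and muscle sum. ZKSCAN3 itself was at 28.1, 23.4 and 19.8 CPM in replicates 1, 2 and 3 of *ZK3*-WT and 25.4, 24.9 and 13.6 CPM in those of *ZK3*-KO (edgeR quasi-likelihood FDR 0.797). A read count over the whole gene does not check a deletion at the start codon.

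The start regions of the factors that differed most between the genotypes, EHF and ETV6, are shown with that of ELF3, the other abundant ESE factor of these cells. Each is 250 bases before to 50 bases after a RefSeq start on the coding strand, placed on GRCh37 by exact match, with GGAA or its reverse complement TTCC in capitals. EHF has 2 RefSeq starts in the table, at chr11:34645554-34645853 and chr11:34653863-34654162, both inside the gene's annotated span. The ELF3 window is chr1:201979465-201979764 and the ETV6 window chr12:11802358-11802657. All 4 lie on the plus strand.
EHF start 1: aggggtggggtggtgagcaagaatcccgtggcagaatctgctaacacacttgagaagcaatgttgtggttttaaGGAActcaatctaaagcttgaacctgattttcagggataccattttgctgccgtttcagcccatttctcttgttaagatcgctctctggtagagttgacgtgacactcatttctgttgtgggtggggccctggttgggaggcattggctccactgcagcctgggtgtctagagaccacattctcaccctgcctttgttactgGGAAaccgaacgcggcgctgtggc
EHF start 2: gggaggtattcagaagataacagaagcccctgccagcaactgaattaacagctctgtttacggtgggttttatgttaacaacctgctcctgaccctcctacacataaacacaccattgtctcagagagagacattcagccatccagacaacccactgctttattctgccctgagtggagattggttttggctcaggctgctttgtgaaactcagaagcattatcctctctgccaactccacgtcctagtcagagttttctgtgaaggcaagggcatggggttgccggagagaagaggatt
ELF3: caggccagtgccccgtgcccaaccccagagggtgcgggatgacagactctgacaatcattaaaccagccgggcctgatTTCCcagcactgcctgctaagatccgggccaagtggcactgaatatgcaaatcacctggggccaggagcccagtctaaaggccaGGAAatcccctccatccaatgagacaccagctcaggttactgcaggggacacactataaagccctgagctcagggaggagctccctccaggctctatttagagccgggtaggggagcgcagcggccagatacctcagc
ETV6: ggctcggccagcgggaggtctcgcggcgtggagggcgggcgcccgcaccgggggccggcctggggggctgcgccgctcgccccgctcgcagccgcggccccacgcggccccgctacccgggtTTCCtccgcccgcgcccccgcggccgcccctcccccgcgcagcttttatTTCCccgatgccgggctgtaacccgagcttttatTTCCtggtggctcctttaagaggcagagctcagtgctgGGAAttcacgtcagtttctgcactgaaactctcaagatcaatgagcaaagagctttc
The letters GGAA, counted on either strand, occurred 2 times at EHF start 1, 0 times at EHF start 2, 2 times in the ELF3 window and 4 times in the ETV6 window. The median over 35116 RefSeq promoters of the same length was 3, and 95.5% of them held at least 1. The longer motif CCGGAAGT, which 4.14% of promoters held on either strand, was in none of the 4 windows. TATAAA, present on either strand in 11.5% of promoters, occurred once in the ELF3 window only.
The windows also differed in base composition. The EHF windows held 51.3% and 48.3% G or C with 8 and 3 CG dinucleotides, and the ELF3 window 59% with 7, where the median promoter had 58.7% and 14. The ETV6 window, with 69% and 33 CG dinucleotides, had more of them than 82.8% of promoters. RefSeq promoters matched 8 of the 10 factors. ETS1 and FLI1 were not matched.

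EHF, the ESE factor whose loss defined the set, fell from one of the most abundant ETS transcripts to a trace. The gene (NCBI Gene 26298, GRCh37 chr11:34642640-34684835, plus strand) held 8537, 13542 and 9427 reads in replicates 1, 2 and 3 of *ZK3*-WT, against 35, 79 and 47 reads in *ZK3*-KO. After normalization by edgeR's TMM factors its level was 135.7, 193.1 and 134.8 CPM in *ZK3*-WT and 0.543, 1.14 and 0.760 CPM in *ZK3*-KO. Every *ZK3*-WT library was above every *ZK3*-KO library, and the lowest *ZK3*-KO library still held more reads than the 3 that set the detection floor. The means were 154.5 ± 33.4 and 0.814 ± 0.302 CPM (SD, n = 3 each), a ratio of 189.8, with a log2 fold change of -7.56 ± 0.35 (SE). Without *ZK3*-KO replicate 3 it was -7.51. In bulk RNA, fewer cells with EHF RNA and less EHF RNA per cell cannot be told apart.
Among the 13149 tested genes whose mean log2 CPM reached 1 or more, EHF had the 4th lowest log2 fold change. It was 1 of 5 genes at 10 CPM or more in every *ZK3*-WT library and under 2 CPM in every *ZK3*-KO library.

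**Figure D1:**
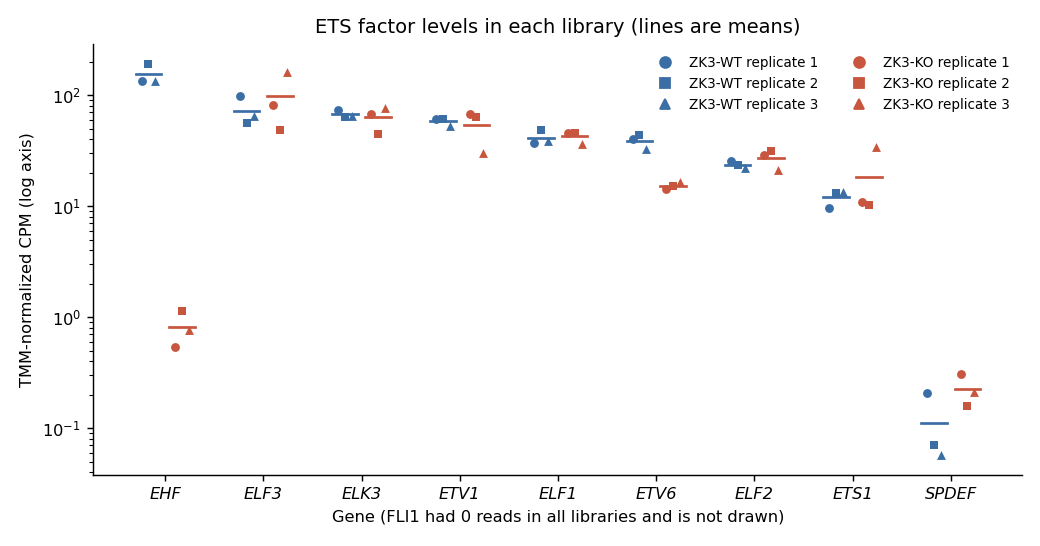
TMM-normalized CPM of 9 ETS factors in each library on a log axis, with *ZK3*-WT in blue, *ZK3*-KO in red, a symbol for each replicate number and a line at the mean of 3 replicates. EHF drops from 134.8 to 193.1 CPM to 0.543 to 1.14 CPM, ETV6 separates without overlap, and the other genes overlap between the genotypes.

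ELF3, the other ESE factor present in these cells (chr1:201977073-201986311), was not lost. It was at 97.6, 56.0 and 64.7 CPM in *ZK3*-WT and at 81.7, 49.0 and 161.9 CPM in *ZK3*-KO. The groups overlapped, *ZK3*-KO replicate 3 was the highest of the 6 libraries, and the log2 fold change of 0.42 ± 0.42 became -0.15 without it. SPDEF, the factor of goblet cells, was close to absent, with 13, 5 and 4 reads in *ZK3*-WT and 20, 11 and 13 reads in *ZK3*-KO. It cleared the expression filter through the *ZK3*-KO libraries, and its log2 fold change of 1.02 ± 0.61 rested on these few reads in overlapping groups.

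ELF1 and ELF2, broadly made relatives of the ESE factors, overlapped between the genotypes. ELF1 was at 37.1, 48.6 and 39.0 CPM in *ZK3*-WT and 45.4, 45.7 and 36.8 CPM in *ZK3*-KO (log2 fold change 0.04 ± 0.17). ELF2 was at 25.4, 23.5 and 22.0 CPM in *ZK3*-WT and 29.1, 31.2 and 21.4 CPM in *ZK3*-KO (0.21 ± 0.18). In both, the lowest *ZK3*-KO value was that of replicate 3.

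ETV6, the repressor of the TEL subfamily (chr12:11802608-12048311), was the other factor whose groups did not overlap. Its level was 40.7, 43.5 and 32.9 CPM in *ZK3*-WT and 14.2, 15.3 and 16.4 CPM in *ZK3*-KO, so that all *ZK3*-KO libraries lay within a narrow range below the lowest *ZK3*-WT library. The log2 fold change was -1.35 ± 0.16, a ratio of means of 2.55, and -1.40 without *ZK3*-KO replicate 3. Of the 9 expressed factors, 2 had non-overlapping groups, where 26.6% of all 18366 tested genes did (13.8% with *ZK3*-WT above and 12.7% with *ZK3*-KO above). This share follows from the choice of the set and is not a result about it.
Of the 16 tested genes next to ETV6, 14 had a log2 fold change below 0, with a median of -0.28 and a range of -1.22 to 0.62, and 13 were below 0 without *ZK3*-KO replicate 3. This was the most one-sided count of those around the 10 factors and is named for that reason. Around the other 9 factors 5 to 11 of 16 neighbours were below 0. On chromosome 12 as a whole 423 of 842 tested genes were below 0. None of the 16 passed an FDR of 0.05 by edgeR's quasi-likelihood test, DESeq2 or limma, while 4 had an unadjusted p under 0.05 by edgeR, where 18.4% of all tested genes did. Over all genes DESeq2 called 8.2% and limma 2.08%.

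The factors known as targets of RAS and ERK signalling showed no common direction. ETS1 (chr11:128328656-128457453) was at 9.70, 13.1 and 13.5 CPM in *ZK3*-WT and 10.9, 10.3 and 34.4 CPM in *ZK3*-KO. Only *ZK3*-KO replicate 3 was above the *ZK3*-WT range, and the log2 fold change of 0.61 ± 0.47 turned to -0.19 without it. The PEA3 factor ETV1 was at 61.5, 60.8 and 53.0 CPM in *ZK3*-WT and 67.4, 63.7 and 30.5 CPM in *ZK3*-KO. Here the same library was the lowest of the 6, and the log2 fold change of -0.12 ± 0.29 became 0.17 without it. ELK3, a ternary complex factor that acts with SRF, was at 74.1, 64.3 and 65.4 CPM in *ZK3*-WT and 68.2, 45.0 and 76.8 CPM in *ZK3*-KO (-0.10 ± 0.21), with overlapping groups.
FLI1, an ETS factor known from blood and endothelium and the neighbour of ETS1, had 0 reads in all 6 libraries, which allows up to 0.0428 to 0.0485 CPM per library (3 reads, counting error only).

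The spread between cultures of 1 genotype differed from factor to factor. *ZK3*-KO replicate 3 deviated from the mean of replicates 1 and 2 by 1.70 for ETS1, 1.36 for ELF3 and -1.10 for ETV1 on the log2 CPM scale, where the median absolute deviation of all tested genes was 0.499. For EHF and ETV6 the deviation was -0.05 and 0.15. The SD of log2 CPM was 0.980 for ETS1 and 0.865 for ELF3 among *ZK3*-KO libraries, against 0.104 for ETV6 and a median of 0.353 over all genes.

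Levels of different genes were compared per transcript length, with the deposited TPM values. In *ZK3*-WT cells EHF ranked first of the 10 (52.8 to 78.2 TPM), ahead of ELF3 (39.1 to 65.7 TPM) with an overlapping range. The first place rested on *ZK3*-WT replicate 2, without which the means were 52.9 TPM for EHF and 54.7 TPM for ELF3. ELK3 followed at 32.5 to 36.5 TPM, then ELF1, ETV1, ELF2, ETV6, ETS1, SPDEF and FLI1. Neighbours in this order with overlapping ranges were EHF and ELF3, ELF1 and ETV1, and ELF2 and ETV6. In *ZK3*-KO cells ELF3 ranked first and EHF 8th.

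Seen over all 28 human ETS genes, EHF ranked 5th, 3rd and 4th by TPM in *ZK3*-WT replicates 1, 2 and 3 and between 19th and 21st in *ZK3*-KO. The ESE subfamily held 19.8%, 17.6% and 15.1% of the family's TPM in *ZK3*-WT and 10.6%, 7.01% and 17.7% in *ZK3*-KO. These ranges overlapped through *ZK3*-KO replicate 3, in which ELF3 alone made up 17.6%. With EHF at these levels, which chose the set, ELF3 necessarily made up nearly all of the ESE subfamily in *ZK3*-KO: it contributed 44.3 ± 11.1% of the TPM in *ZK3*-WT and 98.9 ± 0.959% in *ZK3*-KO (SD, n = 3 each).
The 28 genes summed to 639 ± 36.0 TPM in *ZK3*-WT and 500 ± 22.5 TPM in *ZK3*-KO. Without EHF the sums were 548 to 594 TPM and 479 to 524 TPM, which did not overlap. On the FPKM scale the sums without EHF were 244.2 to 262.5 and 207.5 to 241.5, so that the groups nearly touched. The gap therefore depended on the scale, and whether EHF was the whole of the difference was not tested.

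**Figure D2:**
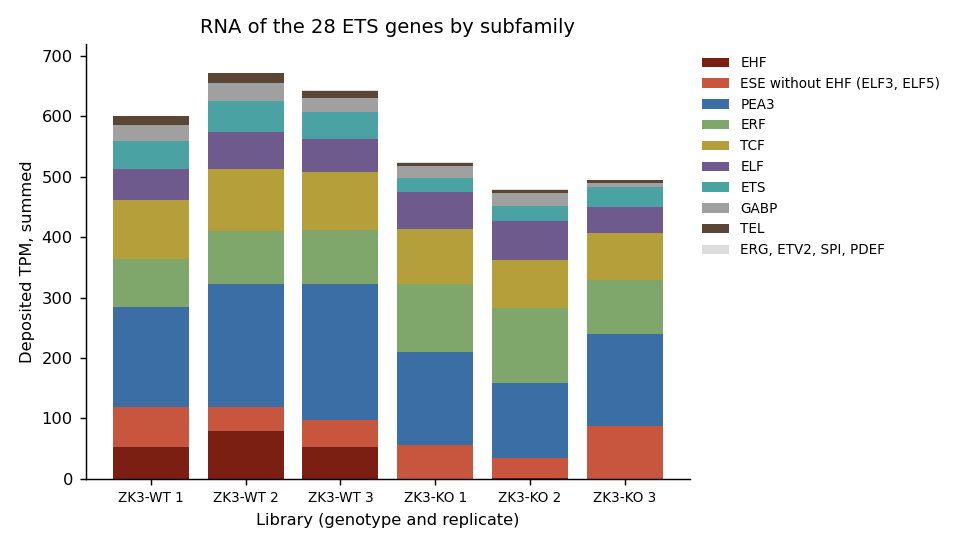
Summed deposited TPM of the 28 human ETS genes in each library (bars start at 0), stacked by subfamily with EHF drawn apart from the other ESE genes. The EHF segment of 52.8 to 78.2 TPM in the 3 *ZK3*-WT libraries is not visible in the *ZK3*-KO libraries, and ELF3 makes up 17.6% of the last bar.

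The 18 ETS genes outside the set, the rest of the family, were tested. The rule of the set did not name them, but earlier results of these data were known when the lists were chosen. With edgeR's quasi-likelihood test adjusted over all 18366 genes, 2.05% of genes passed an FDR of 0.05 (0.817% higher and 1.23% lower in *ZK3*-KO), and the p-values measure the spread between these cultures. Of the 13 ETS genes with enough reads, 1 fell and 0 rose, and 5 (ERG, FEV, ETV3L, SPI1 and SPIC) were not tested. Their median log2 fold change was -0.33, beside 0.02 over all tested genes. Without *ZK3*-KO replicate 3, when 15.1% of all genes passed (7.41% higher and 7.73% lower), 2 fell (ETS2 and ETV5) and 1 rose (ERF).
The gene that fell was ETS2, the paralogue of ETS1, at 77.4, 82.9 and 73.3 CPM in *ZK3*-WT and 35.1, 39.4 and 47.2 CPM in *ZK3*-KO. All *ZK3*-KO libraries were below all *ZK3*-WT libraries (log2 fold change -0.94 ± 0.16, edgeR quasi-likelihood FDR 0.0330). The FDR was 0.00297 without *ZK3*-KO replicate 3 and 0.0944 to 0.186 without each of the other 5 libraries. ETS2 lies on chromosome 21, where 112 of 140 tested genes had a log2 fold change below 0 with a median of -0.39. The part of this in the fall of ETS2 was not tested.
ERF, a repressor of ETS targets, was at 82.6, 82.5 and 93.8 CPM in *ZK3*-WT and at 121.3, 137.1 and 126.8 CPM in *ZK3*-KO. The groups did not overlap (log2 fold change 0.57 ± 0.14, edgeR quasi-likelihood FDR 0.0887, and 0.0212 without *ZK3*-KO replicate 3). With all 6 libraries DESeq2 called ERF (DESeq2 FDR 0.00448), where it called 8.2% of all genes. The PEA3 factors ETV4 (-0.33 ± 0.16, FDR 0.334) and ETV5 (-0.36 ± 0.32, FDR 0.595) did not pass edgeR's test, although ETV5 had an FDR of 0.0391 and a log2 fold change of -0.76 without *ZK3*-KO replicate 3. Of the ternary complex factors, ELK1 had a log2 fold change of 0.14 ± 0.15 (edgeR FDR 0.670) and ELK4 of -0.72 ± 0.26 (edgeR FDR 0.207). The 7 other tested genes ranged from -1.96 to 1.31 and none passed edgeR's test, while DESeq2 called ELF5 (DESeq2 FDR 0.0462).

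**Figure D3:**
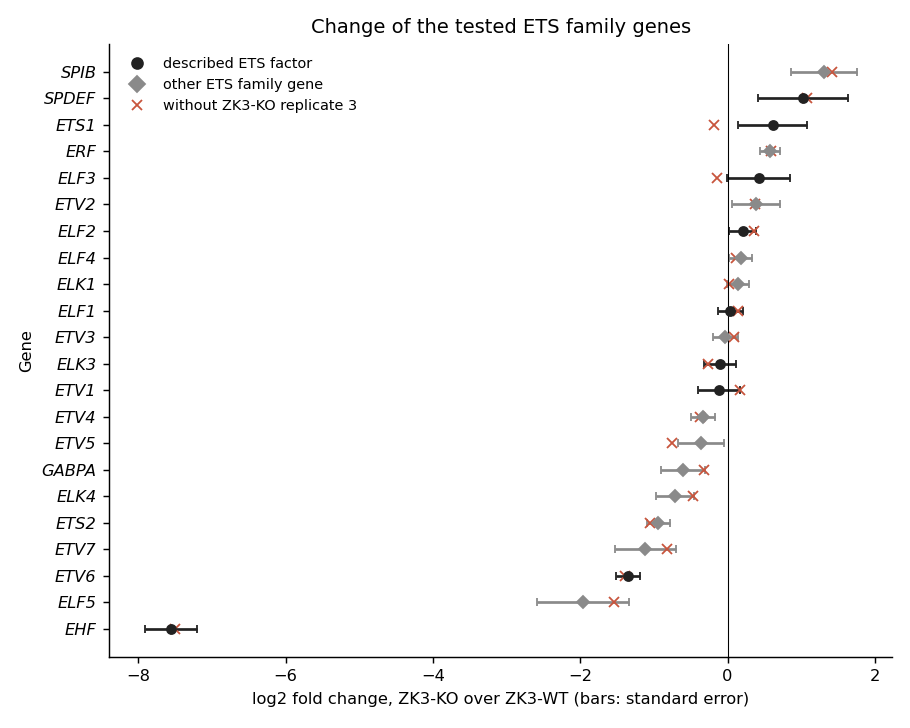
log2 fold change of *ZK3*-KO over *ZK3*-WT with its standard error for the 9 expressed factors of the set (black circles) and 13 other ETS genes (grey diamonds), and the value without *ZK3*-KO replicate 3 (red crosses). EHF at -7.56 lies apart from all others. Among the factors of the set, the crosses of ETS1, ELF3 and ETV1 lie on the other side of 0 from their circles.

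No tested neighbour of EHF came close to its fall. The 8 tested genes on each side, with starts between -918 kb and 1648 kb relative to that of EHF, ranged in log2 fold change from -1.96 to 0.69 with a median of -0.10. By edgeR's quasi-likelihood test 0 of the 16 passed, with 4 at an unadjusted p under 0.05, where 18.4% of all tested genes had one. DESeq2 called 2 of the 16 (8.2% of all genes) and limma 0 (2.08% of all genes). PDHX and COMMD9 rose and TRIM44 fell once *ZK3*-KO replicate 3 was left out, when 7.41% of all genes rose and 7.73% fell.
The nearest gene on the lower side was ELF5, the remaining ESE factor, whose start lies at -142 kb. It was low in all libraries, at 0.493, 1.55 and 1.03 CPM in *ZK3*-WT and 0.357, 0.346 and 0.0809 CPM in *ZK3*-KO. These groups did not overlap, yet the difference did not pass edgeR's test (log2 fold change -1.96 ± 0.63, edgeR quasi-likelihood FDR 0.169). ELF5 was among the genes that DESeq2 called (DESeq2 FDR 0.0462). The nearest on the higher side, APIP, a methionine salvage enzyme whose start lies at 232 kb, was at 25.04, 23.3 and 20.6 CPM in *ZK3*-WT and 19.5, 21.2 and 13.9 CPM in *ZK3*-KO (-0.34 ± 0.20, edgeR FDR 0.418).
Around ETS1 and FLI1, 16 neighbours ranged from -0.28 to 1.46 with a median of 0.12, and 0 passed by edgeR, DESeq2 or limma, with 1 at an unadjusted p under 0.05. PRDM10 rose and KCNJ5 fell when *ZK3*-KO replicate 3 was left out, where 7.41% of all genes rose and 7.73% fell.

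**Figure D4:**
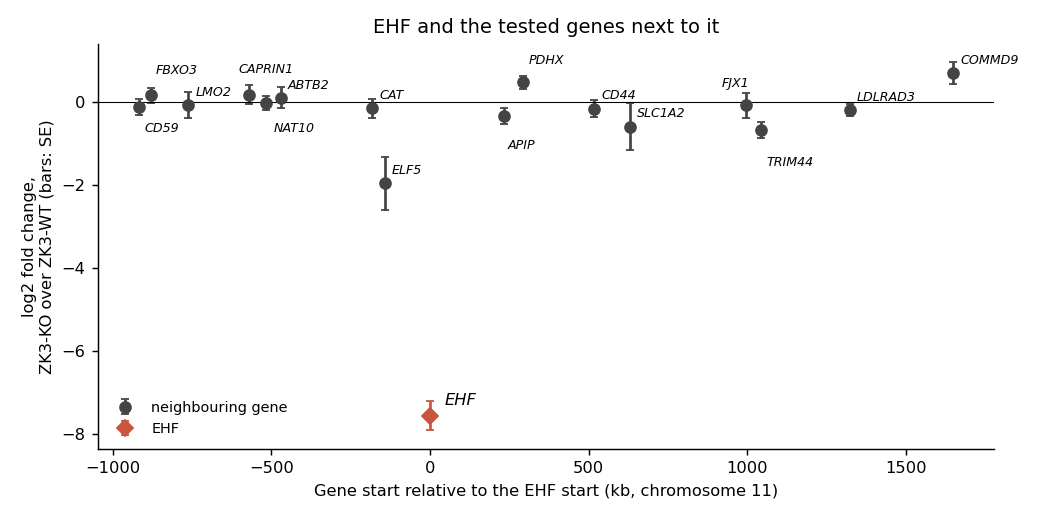
log2 fold change of *ZK3*-KO over *ZK3*-WT with its standard error (vertical axis) for EHF (red diamond) and 16 tested neighbours (grey), against the distance of each gene's start from that of EHF in kb (horizontal axis). EHF is at -7.56, ELF5 at -1.96, and the other neighbours lie between -0.67 and 0.69.

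The 5 genes nearest to EHF over the 6 libraries, by the root mean square difference of mean-centred log2 CPM, were GRIN2B (0.328), LINC00698 (0.549), SLC15A1 (0.596), SPARC (0.901) and TNFSF18 (0.933). They lie on chromosomes 12, 3, 13, 5 and 1. GRIN2B, a subunit of the NMDA glutamate receptor at chr12:13590876-14134936, was at 29.4, 43.3 and 21 CPM in *ZK3*-WT and 0.171, 0.288 and 0.162 CPM in *ZK3*-KO. SPARC, a secreted matrix protein, was at 12.02, 24.7 and 17.6 CPM in *ZK3*-WT and 0.217, 0.361 and 0.307 CPM in *ZK3*-KO. LINC00698, a non-coding RNA at 3.34, 6.69 and 5.65 CPM in *ZK3*-WT, had 0 reads in each *ZK3*-KO library and was at least 108-fold lower there, against the highest floor of 3 reads in any *ZK3*-KO library.
All 5 were chosen by this likeness, which compares 6 points in 2 genotypes, and 22 genes had a Pearson r of at least 0.99 with EHF.

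Genes described as targets of EHF or ELF3, or as epithelial differentiation genes, were tested as a list. Of 30 listed genes 20 had enough reads, 1 fell (1.23% of all genes did) and 0 rose, with a median log2 fold change of -0.06. The gene that fell was TGFBR2, the type II TGF-beta receptor, at 50.8, 87.8 and 71.2 CPM in *ZK3*-WT and 24.6, 29.9 and 24.6 CPM in *ZK3*-KO. The groups did not overlap (log2 fold change -1.41 ± 0.22, edgeR quasi-likelihood FDR 0.0275, and 0.0599 to 0.142 without *ZK3*-WT replicate 2, *ZK3*-WT replicate 3, *ZK3*-KO replicate 1 or *ZK3*-KO replicate 2). Without *ZK3*-KO replicate 3, 6 of 21 tested genes fell, beside 7.73% of all genes, and the median was -0.54.
Of the 11 tested colon epithelium markers, several of which are on the same list, 0 passed by edgeR, DESeq2 or limma, with 0 at an unadjusted p under 0.05. KRT8 had a log2 fold change of 0.18 ± 0.26 (edgeR FDR 0.765) and KRT18 of 0.17 ± 0.38 (edgeR FDR 0.854). Without *ZK3*-KO replicate 3 these turned to -0.14 and -0.36, and the median of the 11 markers went from -0.06 to -0.54. The claudins CLDN3 and CLDN4 then fell, where 7.73% of all genes did.

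Most secretory genes linked to SPDEF were too low to test. Of 20 listed, 7 were tested. Where 0.817% of all tested genes rose, 1 of the 7 did. This was FCGBP, a mucus-associated protein of goblet cells, at 16.2, 22.5 and 23.6 CPM in *ZK3*-WT and 42.7, 40.0 and 60.8 CPM in *ZK3*-KO. All *ZK3*-KO libraries were higher (log2 fold change 1.20 ± 0.23, edgeR quasi-likelihood FDR 0.0473), while the FDR was 0.0690 to 0.209 without each library other than *ZK3*-KO replicate 3. The mucin MUC5AC and the trefoil factors TFF1 and TFF3 had no reads.

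Genes that report ERK output, many of them through ETS factors, lay below 0 in 19 of 26 tested. Their median log2 fold change was -0.39, beside 0.02 over all tested genes, and 1 fell, where 1.23% of all genes did. Of the 26, 5 had an unadjusted p under 0.05 by edgeR, where 18.4% of all tested genes did. The groups did not overlap for 4 of them, where 26.6% of all tested genes did not. LIF, an interleukin-6 family cytokine, was at 154.4, 236.7 and 302.1 CPM in *ZK3*-WT and 32.7, 30.2 and 56.2 CPM in *ZK3*-KO. It fell by 2.54 ± 0.34 on the log2 scale with no overlap (edgeR quasi-likelihood FDR 0.0154, and 0.0506 to 0.0998 without *ZK3*-WT replicate 2, *ZK3*-WT replicate 3, *ZK3*-KO replicate 1 or *ZK3*-KO replicate 2). Without *ZK3*-KO replicate 3, 10 fell and 1 rose, where 7.73% and 7.41% of all genes did, and the median was -0.76.
Of 25 partners and regulators of ETS factors, 0 passed by edgeR's quasi-likelihood test or limma, with 6 at an unadjusted p under 0.05 (18.4% of all genes), and DESeq2 called 4 (8.2% of all genes). The most abundant was TRIB1, a scaffold of the COP1 ubiquitin ligase (log2 fold change -0.59 ± 0.20, edgeR FDR 0.194, and 0.0181 without *ZK3*-KO replicate 3).

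Of 25 tested genes on a list of epithelial transcription factors, 1 rose and 1 fell, where 0.817% and 1.23% of all tested genes did. The list also held the mesenchymal factors ZEB1, ZEB2, SNAI1, SNAI2 and TWIST1 and the splicing factors ESRP1 and ESRP2. The median log2 fold change of the 25 was 0.26, beside 0.02 over all tested genes. It mixes these kinds of genes and gives no direction for the epithelial factors alone. GRHL3, a grainyhead factor of surface epithelium, was at 0.270, 0.257 and 0.157 CPM in *ZK3*-WT and 3.99, 1.87 and 1.20 CPM in *ZK3*-KO. It rose by 3.36 ± 0.53 on the log2 scale from a low level (edgeR quasi-likelihood FDR 0.0282). TFAP2A, an AP-2 factor, was at 29.6, 33.9 and 27.7 CPM in *ZK3*-WT and 16.6, 17.5 and 16.8 CPM in *ZK3*-KO (-0.84 ± 0.15, edgeR FDR 0.0375). Neither pair of groups overlapped. Without each library other than *ZK3*-KO replicate 3, the FDR was 0.0576 to 0.161 for GRHL3 and 0.0925 to 0.207 for TFAP2A. With the replicate number as a block FOXA1, a pioneer factor, passed as well (edgeR FDR 0.0290 in place of 0.0543), when 2.51% of all genes did. Of the markers of other cell types ACTA2, a smooth muscle actin, rose (1.09 ± 0.19, edgeR FDR 0.0387), from 4.39, 5.42 and 5.52 CPM to 11.1, 9.60 and 11.8 CPM. It was 1 of 5 tested fibroblast and muscle markers, where 0.817% of all tested genes rose. No marker of another cell type passed without any 1 of the libraries other than *ZK3*-KO replicate 3.

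**Figure D5:**
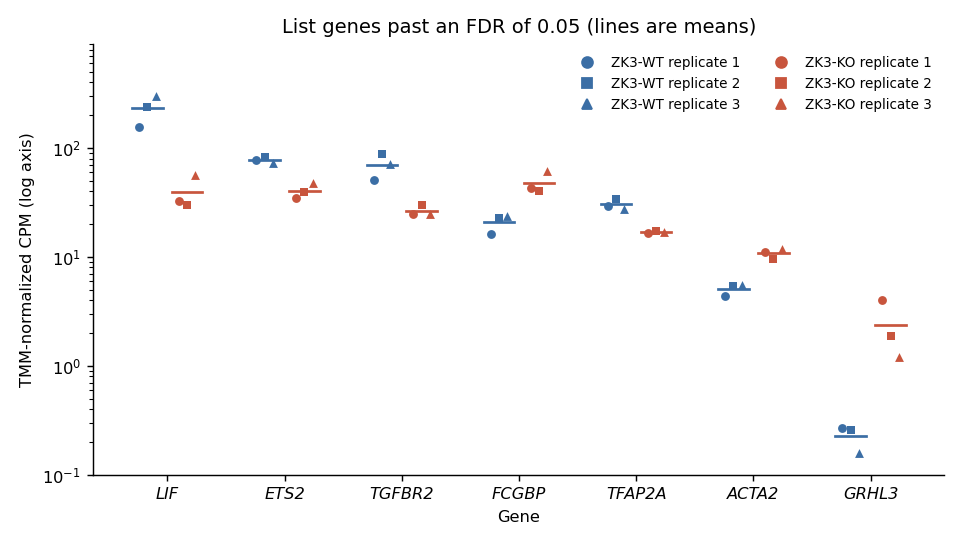
TMM-normalized CPM on a log axis of the 7 genes called, among the listed genes and the ETS genes outside the set, at an FDR under 0.05 by the quasi-likelihood test of edgeR, for each *ZK3*-WT (blue) and *ZK3*-KO (red) library, with a line at the mean of 3 replicates. The groups do not overlap for any of the 7; FCGBP, ACTA2 and GRHL3 are higher in *ZK3*-KO and the other 4 are lower.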

How the data were processed

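RNA-seq libraries of *ZK3*-WT and *ZK3*-KO HCT116 cells (n = 3 each) were grouped by their labels. The authors deposited raw read counts per gene beside FPKM and TPM values, which they had scaled by transcript length and library size. The submitters' notes name Bowtie2 2.2.5 and hg19, and the methods name an Ensembl annotation, whereas the table lists RefSeq transcripts. The strand setting of the counting is not given in the sources used here, so reads of overlapping genes may be shared.

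Tests on counts used edgeR 4.0.16 under R 4.3.3 (filterByExpr, TMM, quasi-likelihood test on genotype, Benjamini-Hochberg FDR under 0.05 over 18366 genes). CPM values are TMM-normalized, and log2 CPM used a prior count of 1. DESeq2 1.42.0, limma 3.58.1 on log2(TPM + 1), other scalings and filters, a replicate block and each library left out were alternatives. The FPKM values gave the same order of the 10 factors and the same shares of the family. No library was a copy of another (chi-square per degree of freedom 41.5 to 543 between replicates). The scripts were tested on simulated counts.

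The factors, lists and naming rule were chosen with earlier results of these data known. Named are all 10 factors, *ZKSCAN3*, other ETS genes past the threshold and the 5 most abundant of the rest, the 4 largest changes past the threshold per list (or, with none, the 2 most abundant genes), the nearest EHF neighbours and the 5 profiles nearest to EHF. FOXA1, ACTA2, COL1A1 and the genes called without *ZK3*-KO replicate 3 were added after their values were seen. A gene that the rule names is not reported here.

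Same-numbered libraries of the 2 genotypes deviated together from their group means, with correlations across genes of 0.261, 0.108 and 0.419, each over 0.1. They were taken as pairs only in the alternative with a replicate block, and the main tests were on genotype alone. *ZK3*-WT replicate 1 with *ZK3*-KO replicate 2 reached 0.196, above the value of number 2. What a number marks is not given in the sources used here. Gene positions came from a GRCh37 annotation and promoters from RefSeq (GRCh38.p14), placed on GRCh37 by sequence.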

Additional observations from a re-analysis of the deposited data

How the results depend on the processing

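In 3 libraries per genotype the calls depended on single libraries. Leaving out each library in turn gave 49 to 2858 genes past the threshold (376 with all 6), 0 to 3 of the other ETS genes, 0 to 6 ESE targets, 0 to 11 ERK output genes, 0 to 4 ETS partners, 0 to 5 epithelial factors, 0 to 1 goblet genes, 0 to 2 colon epithelium markers, 0 to 2 markers of other cell types and 0 to 3 EHF neighbours. The upper ends came without *ZK3*-KO replicate 3. DESeq2 called 1506 genes, 3 other ETS genes, 2 ESE targets, 2 ERK output genes, 4 ETS partners, 5 epithelial factors and 2 EHF neighbours. limma on log2(TPM + 1) called 2 ESE targets, 0 goblet genes, 1 epithelial factor and 0 markers of other cell types, and its median log2 fold change over all genes was -0.08 against 0.02. On that scale EHF was at -5.59, since the pseudocount raises values near 0. Among the remaining alternatives, with all genes of at least 1 read 0 goblet genes, 1 epithelial factor and 0 markers of other cell types passed, and with at least 10 reads in every library 0 goblet genes passed. Without each library in turn EHF ranged from -7.89 to -7.33 and ETV6 from -1.46 to -1.26. With the replicate block 461 genes passed, 318 of them shared with the 376, EHF was at -7.60, and no call of a gene named in the report changed except that of FOXA1. Other causes of these differences were not tested.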
